A study of Mus musculus with 31 samples.

Results

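MHC class I molecules carry peptides from inside a cell to its surface, where CD8+ T cells read them. Each molecule pairs a heavy chain with the light chain β2-microglobulin. The data described here are those of 9 genes of this system among the 15648 genes tested in the hippocampus of mice, chosen by name. Heavy chains account for 7 of them. H2-K1 and H2-D1 encode the classical heavy chains, which present peptides to most CD8+ T cells. H2-Q4, H2-Q7, H2-T22, H2-T23 and H2-M3 encode non-classical ones. B2m encodes the light chain, and Nlrc5 the transactivator that binds class I promoters together with factors of the RFX, CREB and NF-Y families. In the healthy brain neurons express little class I, and interferons raise it in most cell types.

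RNA came from the left hippocampus of 31 adult mice of the genotype OT-I/Rag-/-. Every mouse, control mice included, carried the OT-I transgene and lacked Rag1. OT-I encodes a T cell receptor that recognises an ovalbumin (OVA) peptide on H-2Kb, the product of H2-K1, and without Rag1 no other T or B cell receptors are assembled. The CA1 region of both sides had been injected with rAAV-hSyn-OVA-mCherry (rAAV-OVA) or rAAV-hSyn-mCherry (rAAV-control), in which the human synapsin promoter restricts expression to neurons. Each group held 4 mice at 2, 5 and 28 days (d), and at 8 d there were 4 rAAV-OVA and 3 rAAV-control mice, each mouse a library of its own. By the batch label, which names no step, 8 mice formed batch 2, namely 2 in each group at 2 and 28 d. The other 23 mice, with all those of 5 and 8 d, formed batch 1. Between 19046977 and 57407902 counts were assigned per mouse. The levels below are CPM, counts scaled to 1000000 per library with TMM factors. Log2FC is the log2 fold change of rAAV-OVA over rAAV-control, with its standard error (SE), from edgeR's quasi-likelihood test with 2 surrogate variables. A gene was called increased at a false discovery rate (FDR) of at most 0.05 over all 15648 genes and a Log2FC of at least 0.66.

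Some libraries stood apart from their group in these genes, and counts and Log2FC values of the members that rest on D720 or D844 are given with and without them. Control mouse D720 at 8 d had a summed heavy chain level of 2001 CPM, whereas the other control mice of that day had 100 and 298. rAAV-OVA mouse D844 at 28 d had 427 CPM, whereas the other 3 mice of its group had between 1573 and 3753 CPM. rAAV-OVA mouse BEC-B542 at 2 d had 422 CPM, inside the control range, but its Nlrc5 level of 35.5 CPM lay above the 4.19 to 9.21 CPM of the other mice in its group. Neuronal markers were present in every library, and their summed level over 10 genes ran from 3153 to 9112 CPM. Choroid plexus markers, which belong to tissue next to the hippocampus, varied from 33.6 to 5233 CPM between libraries. Their part in the results was not tested.

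The promoter sequences of these genes are shown first, because 4 of the heavy chain genes share an arrangement of elements next to their start. RefSeq promoter sequences (GRCm38.p6), reaching from 250 bases before to 50 bases after the transcription start, were at hand for 8 of the 9 genes, all but Nlrc5. They were searched on both strands for GGGNNTTCC, a κB-like element of the kind bound by NF-κB, TTTCNNTT, the core of elements bound by interferon regulatory factors (IRF), TGACG, a site of the CREB type, and CCAAT, the box bound by NF-Y. The letters were chosen after the sequences were seen, and a match is not evidence of binding. No match of one element overlapped a match of another in the stretches printed. Capitals mark the matches, and each stretch runs 5′ to 3′ on the gene's strand from the κB-like element to the last CCAAT match.
H2-K1 (chr17:34000335-34000458, minus strand): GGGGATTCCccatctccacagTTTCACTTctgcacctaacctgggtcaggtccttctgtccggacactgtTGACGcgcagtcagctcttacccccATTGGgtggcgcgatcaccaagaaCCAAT
H2-D1 (chr17:35262923-35263045, plus strand): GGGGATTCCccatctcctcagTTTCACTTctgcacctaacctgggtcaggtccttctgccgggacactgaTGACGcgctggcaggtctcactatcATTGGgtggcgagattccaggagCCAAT
H2-Q4 (chr17:35379444-35379566, plus strand): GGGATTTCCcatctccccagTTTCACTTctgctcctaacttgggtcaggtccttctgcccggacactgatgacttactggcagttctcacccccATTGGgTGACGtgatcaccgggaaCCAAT
H2-Q7 (chr17:35439022-35439143, plus strand): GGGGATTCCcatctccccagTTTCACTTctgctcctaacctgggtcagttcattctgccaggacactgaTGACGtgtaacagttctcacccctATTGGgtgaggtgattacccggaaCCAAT

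These 4 stretches measured 122 to 124 bases and had nearly the same spacing. The κB-like and IRF-like matches lay 11 or 12 bases apart. The first CCAAT match began 65 or 66 bases after the IRF-like one, and 18 or 19 bases separated the paired CCAAT matches. The TGACG match followed the IRF-like one after 41 bases in H2-K1, H2-D1 and H2-Q7, and after 72 bases in H2-Q4. A κB-like match was found in 5.72% of all 27025 promoters in the table, an IRF-like match in 24.2%, TGACG in 21% and CCAAT in 37.9%. All 4 kinds together were held by 37 promoters, or 0.137%, and 4 of these belonged to the class I genes above. The class II gene H2-Aa was another. A gamma-activated site, searched as TTCNNNGAA, was found in the promoter of H2-M3 alone among the 8, outside the stretch printed below, and in 8.47% of all promoters.

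The remaining 4 genes had no match to GGGNNTTCC in this window, and are printed from their first IRF-like match because they differ from the arrangement above. κB-like elements of other spacing were not searched for. Just after the IRF-like match of B2m, on the strand opposite to the one printed, GGG and TTCC lie slightly farther apart than in these letters. A κB-like element of that spacing in B2m is therefore not excluded.
H2-T22 (chr17:36042801-36042933, minus strand): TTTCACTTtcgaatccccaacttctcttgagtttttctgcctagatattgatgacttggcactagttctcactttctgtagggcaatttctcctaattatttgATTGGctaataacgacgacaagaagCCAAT
H2-T23 (chr17:36032749-36032825, minus strand): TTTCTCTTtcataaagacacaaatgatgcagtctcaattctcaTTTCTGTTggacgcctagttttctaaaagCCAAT
H2-M3 (chr17:37270133-37270217, plus strand): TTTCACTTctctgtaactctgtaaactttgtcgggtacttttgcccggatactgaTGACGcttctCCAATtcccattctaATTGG
B2m (chr2:122147550-122147638, plus strand): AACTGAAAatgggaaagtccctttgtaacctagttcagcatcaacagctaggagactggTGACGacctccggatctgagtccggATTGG

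An IRF-like and a CCAAT match were present in all 8 promoters, and a TGACG match in 7, all but that of H2-T23. In H2-T22 the TGACG match lay after the printed stretch, 22 bases before the start. At 5 d the Log2FC values of the 4 genes with the shared arrangement ran from 2.84 to 5.26, and those of the other 4 genes from 2.26 to 3.74. Of the 27 tested genes whose promoters held all 4 kinds of match, 23 were not members. Among these 23, H2-Aa and Mcm7 increased at 5 d and Gm17750 decreased, and the median Log2FC was -0.03.

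**Figure D1:**
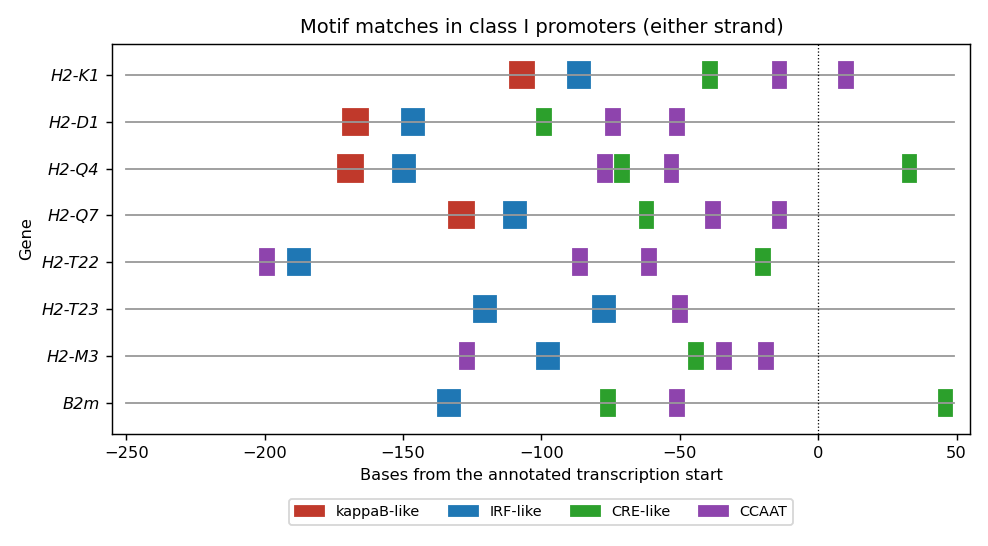
Motif matches in the 8 class I promoters, by distance in bases from the annotated transcription start (dotted line). Boxes mark matches on either strand. H2-K1, H2-D1, H2-Q4 and H2-Q7 show the same order and nearly the same spacing of κB-like, IRF-like and CCAAT matches, shifted against the start. The other 4 genes have no κB-like box by the letters searched, which allow a single spacing.

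Heavy chain genes are similar in sequence, and salmon divides reads that fit several of them by probability. As a measure of this, all stretches of 31 bases in the longest protein-coding transcript of each member were looked up in the transcripts of all other genes (GENCODE M21). They were found elsewhere for 23.3% of H2-K1, 27.5% of H2-D1, 43.4% of H2-Q4, 48.6% of H2-Q7, 48.4% of H2-T23 and 63.3% of H2-T22. For H2-T22 most of these, 55.8% of its stretches, were shared with H2-T10. For H2-M3 the share was 4.62%, and for B2m and Nlrc5 it was 0.0%. Values of H2-T22, H2-Q4, H2-Q7 and H2-T23 are therefore less certain as single genes, and the sum over the 7 heavy chains is reported beside them. The sum settles only what members share with each other. In these genes 7.22%, 16.3%, 17.7% and 16.3% of the stretches occurred in other members. Most of their shared stretches thus occurred only in genes outside the sum.

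The summed heavy chain level did not separate the groups at 2 d and was higher in rAAV-OVA mice from 5 d on. At 2 d, control mice had 326, 384.8, 433 and 521 CPM and rAAV-OVA mice 262, 360, 365 and 422 CPM, and the groups overlapped. At 5 d, control mice had 106, 144, 204 and 237 CPM and rAAV-OVA mice 2271, 2719, 2890 and 3036 CPM. Every rAAV-OVA mouse was above every control mouse on that day, and the mean log2 level differed by 4.04. At 8 d, control mice had 100, 298 and 2001 CPM and rAAV-OVA mice 1607, 2356, 2642 and 3838 CPM. The groups overlapped through control mouse D720 alone, and the log2 difference was 2.67, or 3.85 without that mouse. At 28 d, control mice had 77.6, 90.3, 142 and 250 CPM and rAAV-OVA mice 427, 1573, 3555 and 3753 CPM. The groups did not overlap, and the log2 difference was 3.78, or 4.46 without rAAV-OVA mouse D844. In bulk tissue, fewer cells of a type and less RNA per cell cannot be told apart.

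**Figure D2:**
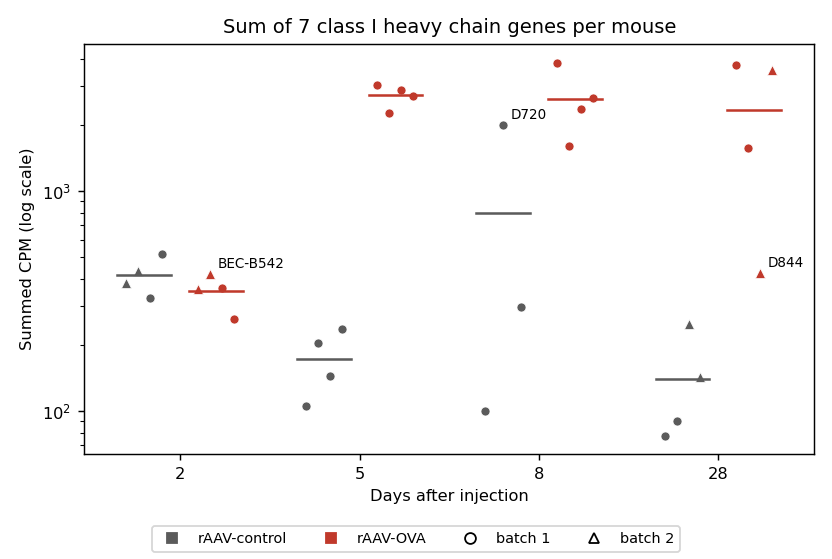
Summed CPM of the 7 heavy chain genes in each mouse (log axis) by days after injection. Points are mice, bars group means, and the marker shape gives the batch. rAAV-OVA mice at 5 d sit between 2271 and 3036 CPM, control mouse D720 (2001 CPM) lies within the range of the rAAV-OVA mice of 8 d, and rAAV-OVA mouse D844 (427 CPM) lies below the others of its group and above the controls of 28 d.

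At 2 d none of the 9 genes was called increased by edgeR, with 0.0% of all genes called. No member had an unadjusted p under 0.05, and DESeq2's Wald test and limma's voom also called 0 of the 9. Over all genes 1428 had an unadjusted p under 0.05, and DESeq2 called 0 genes increased and 10 decreased. Log2FC ran from -0.31 for H2-K1 to 0.59 for Nlrc5, with SE between 0.30 and 0.72. No member had every rAAV-OVA mouse above every control mouse, a pattern that 2.22% of all genes showed.

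At 5 d all 9 genes were called increased, with 9.56% of all genes called, and their median Log2FC was 3.38 against -0.01 over all genes. Without mice D720 and D844, which enter through the shared model, the median of the members was 4.11. All 9 also had every rAAV-OVA mouse above every control mouse, which held for 21% of all genes.

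At 8 d all 9 were called increased, with 9.36% of all genes called and a median Log2FC of 2.15. This count rests on the surrogate variables, which are estimated from the counts. It was 2 without them and 0 when the 7 mice of that day were tested alone, with a median Log2FC of 1.64 and 1.65. Leaving out control mouse D722 left 1 and D696 left 4. Of the 7 mice of that day, leaving out D696 gave each member its lowest Log2FC, which was 1.44 for H2-K1, 1.28 for H2-D1, 1.35 for H2-Q4, 2.12 for H2-Q7, 0.87 for H2-T22, 1.20 for H2-T23, 1.25 for H2-M3, 1.19 for B2m and 2.47 for Nlrc5. Mice of other days mattered as well through the shared model: without rAAV-OVA mouse BEC-B541 of 2 d or D845 of 28 d the count was 2, without BEC-B542 it was 5, and without D701 of 8 d it was 6. Without control mouse D720 it was 9 with and without surrogate variables, and the median Log2FC became 3.62 and 3.72. Only H2-Q7 and Nlrc5 among the members had every rAAV-OVA mouse above every control mouse at 8 d, against 14.4% of all genes. Without D720 all 9 did, against 24.8% of all genes.

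At 28 d all 9 were called increased, with 12.7% of all genes called and a median Log2FC of 2.99. All 9 had every rAAV-OVA mouse above every control mouse, against 15% of all genes. All 9 were also called without mouse D844, with a median Log2FC of 3.48. Without it the Log2FC was 3.79 for H2-K1, 3.63 for H2-D1, 3.48 for H2-Q4, 4.64 for H2-Q7, 1.79 for H2-T22, 3.04 for H2-T23, 2.37 for H2-M3, 3.07 for B2m and 3.79 for Nlrc5. Without D844 and D720 together the median of the members was 4.21. Within batch 1 the 9 genes had a median Log2FC of 5.09 and all were called. Within batch 2, 2 mice against 2, the median was 3.27 and none was called by edgeR (8 of 9 at an unadjusted p under 0.05). The surrogate variables lower the estimates at 5 and 28 d. Without them the median Log2FC of the members was 4.23 at 5 d and 4.04 at 28 d.

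**Figure D3:**
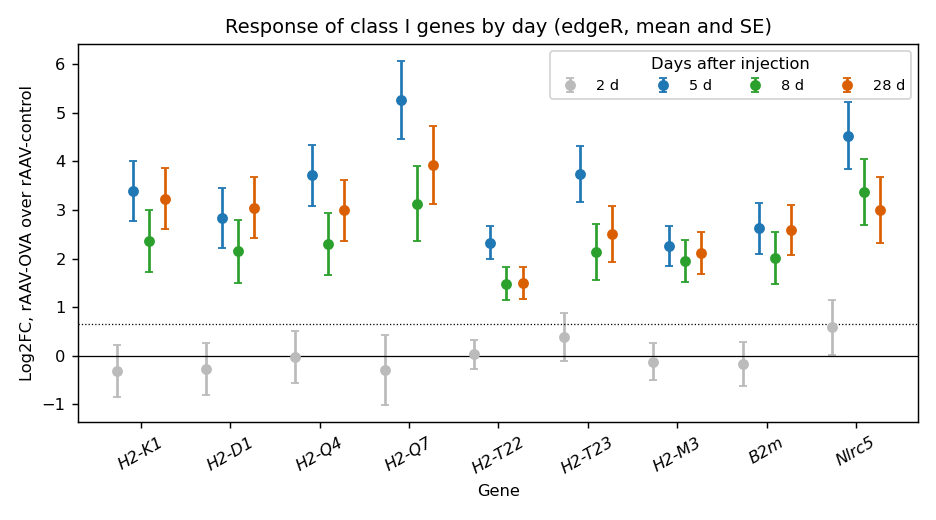
Log2FC of rAAV-OVA over rAAV-control for each class I gene at 2, 5, 8 and 28 d (edgeR, points with SE as bars). The dotted line is the Log2FC limit of 0.66. H2-Q7 and Nlrc5 have the highest values at 5 d (5.26 and 4.53), H2-T22 has the lowest at 8 and 28 d (1.48 and 1.497), and the values at 2 d lie around 0.

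Among the heavy chain genes, the classical ones were the most abundant. H2-K1, whose product presents the OVA peptide to the OT-I receptor, had 28.5, 39.3, 60.8 and 67.1 CPM in control mice at 5 d and 775, 898, 984 and 1015 CPM in rAAV-OVA mice. The lowest rAAV-OVA mouse lay far above the highest control mouse. The means were 48.9 ± 18.1 and 918 ± 107 CPM (SD, n = 4 each), with a Log2FC of 3.38 (SE 0.62, FDR 0.000326). At 8 d control mice had 27.7, 91.5 and 646 CPM and rAAV-OVA mice 563, 759, 909 and 1399 CPM. Control mouse D720 exceeded the lowest rAAV-OVA mouse, and the Log2FC was 2.36 (SE 0.64, FDR 0.0124), or 3.76 without D720. At 28 d control mice had 19.3, 25.3, 42.0 and 65.2 CPM and rAAV-OVA mice 127, 530.5, 1244 and 1248 CPM. Even mouse D844, the lowest, was above all controls, and the Log2FC was 3.23 (SE 0.62, FDR 0.000719).

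H2-D1, the other classical heavy chain, had 49, 66.5, 91.5 and 124 CPM in control mice at 5 d and 864, 1030, 1049 and 1073 CPM in rAAV-OVA mice. The groups did not overlap, and the Log2FC was 2.84 (SE 0.62, FDR 0.00157). At 8 d control mice had 39.8, 118 and 848 CPM and rAAV-OVA mice 648, 972, 1036 and 1511 CPM, which overlapped through D720. The Log2FC was 2.15 (SE 0.64, FDR 0.0233), or 3.62 without that mouse. At 28 d control mice had 32.6, 37.7, 64.3 and 118 CPM and rAAV-OVA mice 211, 708, 1551 and 1684 CPM. The groups did not overlap, and the Log2FC was 3.05 (SE 0.63, FDR 0.00112).

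Among the Q region genes, H2-Q7, which encodes a heavy chain of the Qa-2 family, showed the largest fold change of all members at 5 and 28 d. In control mice at 5 d it had 0.85, 1.45, 1.83 and 3.51 CPM, and in rAAV-OVA mice 99.2, 125, 161 and 171 CPM. It was thus nearly silent in controls, and its Log2FC was 5.26 (SE 0.81, FDR 6.834e-05). At 28 d it had 0.32, 0.33, 1.96 and 7.47 CPM in control mice and 12.1, 74.1, 172 and 178 CPM in rAAV-OVA mice, with a Log2FC of 3.92 (SE 0.80, FDR 0.00102). The control mice with the higher values, D843 and D851, were those of batch 2. The estimate within batch 1 was 8.58, and that within batch 2 was 4.28. At 8 d the Log2FC was 3.13 (SE 0.78, FDR 0.00722), or 4.75 without D720. H2-Q4 was more abundant than H2-Q7 in control mice, with 4.34 to 11.3 CPM at 5 d, and rose to 161 to 220 CPM in rAAV-OVA mice. Its Log2FC was 3.72 at 5 d (SE 0.62, FDR 0.00015), 2.30 at 8 d (SE 0.63, FDR 0.0137; 3.72 without D720) and 2.99 at 28 d (SE 0.62, FDR 0.00119).

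The T region gene H2-T23 encodes Qa-1, which presents leader peptides of other class I heavy chains to the NKG2A receptor of NK and CD8+ T cells. It had 7.16, 11.7, 13.1 and 18.8 CPM in control mice at 5 d and 249, 329, 335 and 394 CPM in rAAV-OVA mice, with no overlap. Its Log2FC was 3.74 at 5 d (SE 0.58, FDR 7.349e-05), 2.13 at 8 d (SE 0.58, FDR 0.0131; 3.16 without D720) and 2.50 at 28 d (SE 0.58, FDR 0.00241). H2-T22, whose product is a ligand of some γδ T cell receptors, rose from 14.8 to 18.8 CPM in control mice to 111 to 158 CPM in rAAV-OVA mice at 5 d (Log2FC 2.33, SE 0.33, FDR 4.005e-05). Its Log2FC was the lowest of the members at 8 d (1.48, SE 0.34, FDR 0.00436; 2.20 without D720) and at 28 d (1.497, SE 0.33, FDR 0.00196). H2-T10, with which it shares most of its sequence, had Log2FC values of 2.51, 2.24 and 1.19 on the 3 days, and at 28 d its FDR was 0.0523. H2-M3, which presents N-formylated peptides of bacteria and mitochondria, was the least abundant heavy chain in rAAV-OVA mice at 5 d, and in control mice its range overlapped that of H2-Q7. It had 1.37 to 2.24 CPM in control mice and 11.4 to 15.9 CPM in rAAV-OVA mice at 5 d, with Log2FC values of 2.26, 1.95 and 2.11 at 5, 8 and 28 d (FDR 0.000318, 0.00303 and 0.000949). Without D720 its value at 8 d was 2.90.

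The light chain gene B2m rose with the heavy chains. Control mice at 5 d had 108, 136, 158 and 190 CPM and rAAV-OVA mice 1366, 1564, 1594 and 1646 CPM, without overlap. The Log2FC was 2.62 at 5 d (SE 0.52, FDR 0.000644), 2.01 at 8 d (SE 0.54, FDR 0.0118; 3.21 without D720) and 2.59 at 28 d (SE 0.52, FDR 0.000939). At 28 d it was 71.3, 80.6, 119 and 171 CPM in control mice and 257, 974, 2002 and 2179 CPM in rAAV-OVA mice. The ratio of B2m to the 7 heavy chains was lower in rAAV-OVA than in control mice at 5 and 28 d. It lay between 0.515 and 0.602 in rAAV-OVA mice and between 0.771 and 1.02 in control mice at 5 d, and between 0.563 and 0.619 against 0.687 and 0.919 at 28 d. In control mouse D720 the ratio was 0.607, and in the other controls of that day 0.696 and 0.802. In D844, where the heavy chains were low, it was 0.603, within its group. At 2 d it was 0.658 to 0.750 in control and 0.617 to 0.813 in rAAV-OVA mice, and the groups overlapped.

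The transactivator gene Nlrc5 was low in control mice and had the second largest Log2FC at 5 d. At 5 d control mice had 0.49, 1.08, 1.61 and 2.96 CPM and rAAV-OVA mice 51.2, 51.9, 82.7 and 90.7 CPM, with a Log2FC of 4.53 (SE 0.68, FDR 6.128e-05). At 8 d control mice had 1.42, 5.57 and 26 CPM and rAAV-OVA mice 37.2, 69.0, 87.8 and 91.8 CPM. Even the value of D720 lay below all rAAV-OVA mice, and the Log2FC was 3.37 (SE 0.67, FDR 0.00155), the largest of the members on that day. Without D720 it was 4.18, and H2-Q7 was larger. At 28 d control mice had 0.48, 1.10, 2.09 and 4.46 CPM and rAAV-OVA mice 4.83, 32.8, 72.6 and 74.2 CPM. Mouse D844 barely exceeded the highest control mouse, and the Log2FC was 3.003 (SE 0.69, FDR 0.00228).

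**Figure D4:**
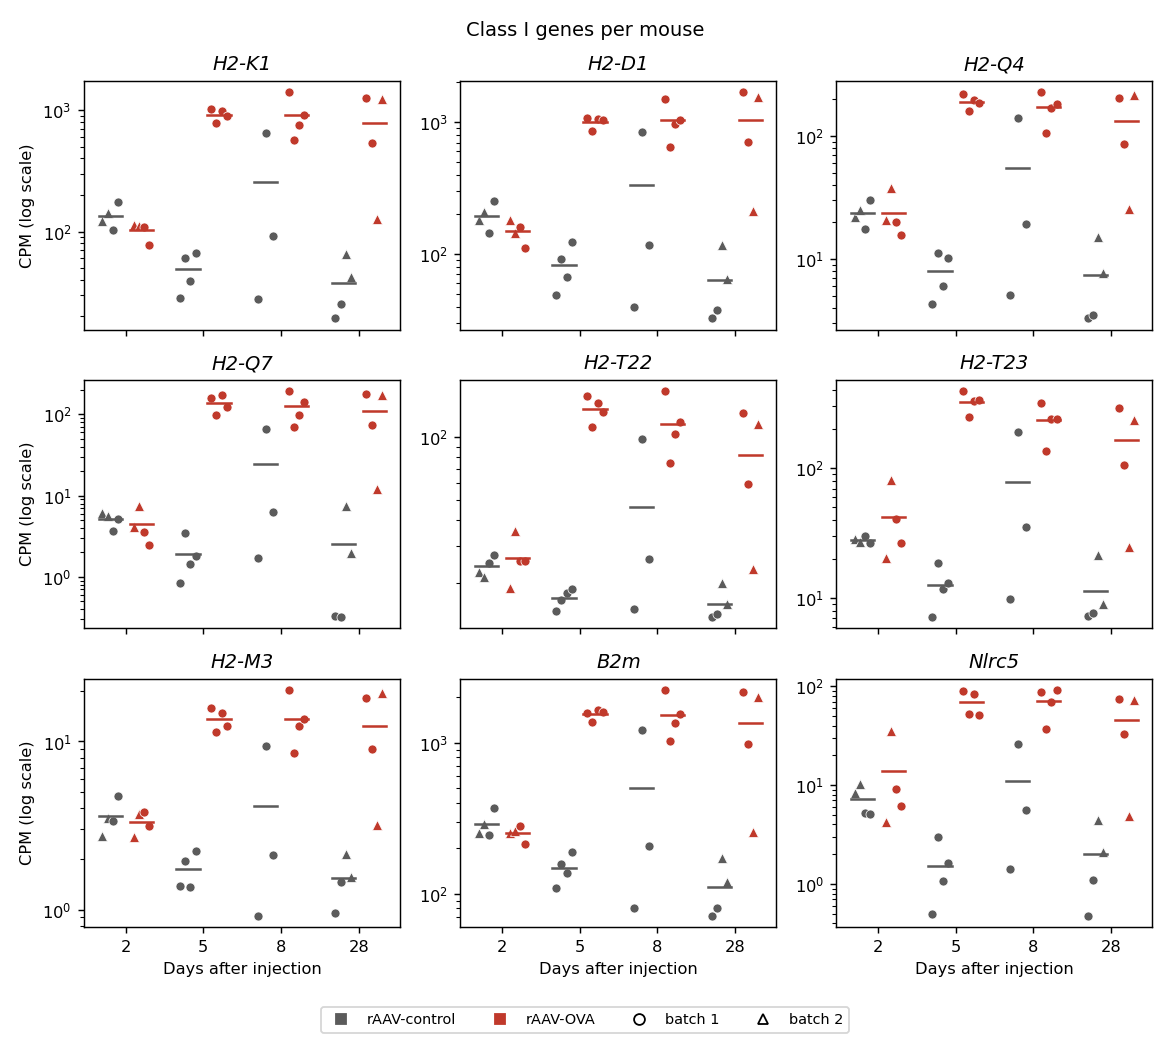
CPM of each class I gene in each mouse (log axes) by days after injection, with bars at group means and marker shape for the batch. In every panel the rAAV-OVA mice at 5 d lie above all controls of that day, control mouse D720 at 8 d lies within or, for H2-Q7 and Nlrc5, just below the range of the rAAV-OVA mice, and 1 rAAV-OVA mouse at 28 d lies near the controls.

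Levels of different genes were compared per length, as CPM per kb of the longest protein-coding transcript. In control mice at 5 d the order was B2m (172), H2-D1 (39.3), H2-K1 (30.2), H2-T22 (9.68), H2-T23 (8.62), H2-Q4 (4.44), H2-Q7 (1.25), H2-M3 (1.21) and Nlrc5 (0.20). In rAAV-OVA mice of that day it was B2m (1794), H2-K1 (567), H2-D1 (478), H2-T23 (222), H2-Q4 (107), H2-Q7 (91.3), H2-T22 (77.4), H2-M3 (9.46) and Nlrc5 (9.12). The ranges over mice overlapped between neighbours H2-D1 and H2-K1 in both groups. In control mice they also overlapped between H2-T22 and H2-T23, H2-T23 and H2-Q4, and H2-Q7 and H2-M3. In rAAV-OVA mice they overlapped between H2-Q4 and H2-Q7, H2-Q7 and H2-T22, and H2-M3 and Nlrc5. Neighbours whose ranges overlapped are not ordered beyond their spread.

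The ratio of H2-T23 to H2-K1 within a mouse does not depend on library depth. It was 0.321, 0.334, 0.373 and 0.388 in rAAV-OVA mice at 5 d, 0.2298, 0.242, 0.265 and 0.319 at 8 d, and 0.191, 0.195, 0.199 and 0.234 at 28 d. No mouse at 28 d reached a mouse at 5 d, and D844 lay within its group despite its low total. Among the other members, none had a ratio to H2-K1 that was higher in every rAAV-OVA mouse at 5 d than in every such mouse at 28 d, and 0.927% of all genes had. This count rests on D844. Without it H2-T22 and H2-Q4 had such a ratio as well as H2-T23, 3 members in all, and 2.42% of all genes had. The ratio of H2-T22 to H2-K1 was 0.144 to 0.155 at 5 d and 0.0925, 0.104, 0.113 and 0.185 at 28 d, the last in D844. In control mice the ratio of H2-T23 to H2-K1 was 0.195 to 0.310 at 5 d and 0.216 to 0.379 at 28 d. The ratio of H2-D1 to H2-K1 was 1.06 to 1.15 in rAAV-OVA mice at 5 d, 1.08 to 1.28 at 8 d and 1.25 to 1.67 at 28 d, against 1.50 to 1.84 in control mice at 5 d. It was lower in every rAAV-OVA mouse at 5 d than in every one at 28 d, which held for 5.2% of all genes and, without D844, for 5.52%. H2-K1 and H2-D1 share part of their sequence, and its part in these ratios was not tested. The pattern was chosen after the values were seen.

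**Figure D5:**
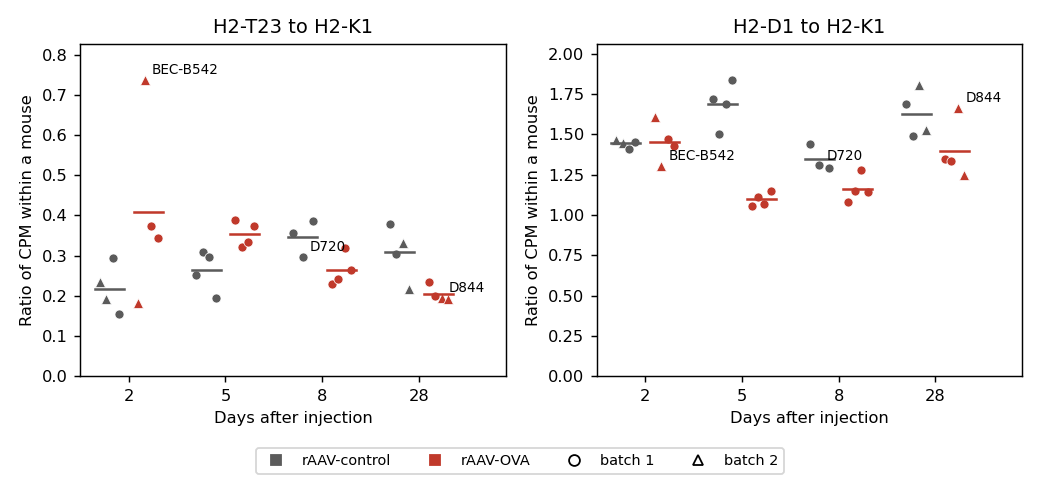
Ratio of H2-T23 (left) and H2-D1 (right) to H2-K1 within each mouse, by days after injection, with bars at group means and marker shape for the batch. In rAAV-OVA mice the H2-T23 ratio is 0.321 to 0.388 at 5 d and 0.191 to 0.234 at 28 d, and mouse BEC-B542 at 2 d stands at 0.738.

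Whether the response of a member differed between days was tested as an interaction in the same edgeR model. Between 5 and 8 d, 0 of 9 members passed the FDR and Log2FC limits in either direction, with 0.179% of all genes called. Between 5 and 28 d it was 0 of 9, with 6.18% of all genes called, and between 8 and 28 d 0 of 9, with 0.0% of all genes called. In these 3 tests no member had an unadjusted p under 0.05, against 7.29%, 27.1% and 16.1% of all genes, and DESeq2 and voom called 0 as well, with at most 1 member at that p in a test. Without surrogate variables 8 of 9 members had an unadjusted p under 0.05 between 5 and 8 d (7.83% of all genes) and 6 between 8 and 28 d (12.1%), in batch 1 alone 8 (10.6%) and 8 (6.75%), and 0 were called. With the batch label as covariate it was 8 (8.88%) and 6 (12.7%), and with the mice of the days alone 6 (10.7%) and 1 (9.76%). The filter of 15 counts in every mouse, which kept surrogate variables, gave 4 of 7 (8.58%) and 4 of 7 (19.8%). In these settings 0 were called too. Leaving out D720 from the fit without surrogate variables gave 0 in both (6.45% and 6.86% of all genes), and leaving out D844 gave 9 between 8 and 28 d (16%). Over all genes between 8 and 28 d DESeq2 called 107 genes in the positive and 51 in the negative direction and voom 0, and 2521 had an unadjusted p under 0.05 in edgeR. With D720 included, all 9 members had a smaller Log2FC at 8 d than at 5 d, and without it 5 of 9 had, while H2-K1, H2-D1, H2-M3 and B2m had a larger one. With all mice the difference was -1.61 for H2-T23 (SE 0.81, FDR 0.71) and -2.13 for H2-Q7 (SE 1.09, FDR 0.72), and without D720 -0.83 for H2-T23 (FDR 0.798) and -0.77 for H2-Q7 (FDR 0.869). From 5 to 28 d the difference was -1.53 for Nlrc5 (SE 0.87, FDR 0.264), -1.24 for H2-T23 (SE 0.71, FDR 0.265) and -0.83 for H2-T22 (SE 0.42, FDR 0.206), but -0.15 for H2-K1 (SE 0.74, FDR 0.917) and 0.21 for H2-D1 (SE 0.75, FDR 0.884). Without D844 these 5 differences were -1.06, -1.02, -0.78, 0.11 and 0.51, and without D844 and D720 they were -0.91, -0.66, -0.47, 0.44 and 0.80, none of them called.

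For most members, levels at 2 d in mice of both treatments were above those of control mice at 5 d, but not above all control mice at 8 d. H2-K1 had 102, 123, 143 and 174 CPM in control mice and 77.5, 110, 111 and 112 CPM in rAAV-OVA mice at 2 d, and no control mouse at 5 d exceeded 67.1 CPM. At 8 d, 2 control mice, with 91.5 and 646 CPM, were above the lowest mouse of 2 d. For 7 of 9 members, all but H2-D1 and H2-Q7, each of the 8 mice at 2 d lay above each control mouse at 5 d, which held for 1.21% of all genes. In control mice the Log2FC of 28 over 2 d was negative for all 9 members, from -1.504 for H2-K1 (SE 0.55, FDR 0.175) to -0.30 for H2-T22 (SE 0.31, FDR 0.728). None passed the limits in edgeR, DESeq2 or voom, with 2.96% of all genes called, while 6 of 9 had an unadjusted p under 0.05, against 13.6% of all genes. Without control mouse D720, which enters through the shared surrogate variables, H2-K1 passed (Log2FC -1.66, SE 0.45, FDR 0.0333). Ccr2, a receptor gene of infiltrating monocytes, was also higher at 2 d, with 8.48 to 13.1 CPM in control mice at 2 d and 0.36 to 1.24 CPM at 5 d. In control mice from 2 to 28 d, 4 of 8 monocyte markers decreased, Ccr2 among them. So did 2 of 9 microglia, 2 of 5 astrocyte and 1 of 2 neutrophil markers, and none in these lists increased. The part of these genes in the class I levels was not tested.

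The mice that stood apart differed in which members were affected. In D720 all 9 members were raised over the mean of the other controls at 8 d, from 4.78 times for H2-T22 to 16.3 times for H2-Q7. In D844 all 9 were below the mean of the other rAAV-OVA mice at 28 d, from 0.0806 of it for Nlrc5 to 0.231 of it for H2-T22. In BEC-B542 Nlrc5 was 5.44 times the mean of the other rAAV-OVA mice at 2 d, H2-T23 2.80 times, H2-Q7 2.20 times, H2-Q4 1.99 times and H2-T22 1.52 times. H2-K1 (1.11 times), H2-D1 (0.959 times), B2m (1.04 times) and H2-M3 (1.15 times) lay near that mean. In the same mouse the interferon response factor Irf1 had 87.6 CPM, against 6.59 to 30.4 CPM in the others of its group. Its T cell markers were low, with 0.26 CPM of Cd8a, against 0 to 0.16 CPM in the others of its group, and 1.54 CPM of Trbc2, against 1.35 to 2.63 CPM.

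The genes that supply class I molecules with peptide were followed by lists. Of 8 genes for peptide transport and loading, 7 increased at 5 d and 5 at 8 and 28 d. Tap1, a subunit of the transporter that brings peptides into the endoplasmic reticulum, had Log2FC values of 3.80, 2.58 and 2.88 on these days (FDR 5.869e-05, 0.00343 and 0.000895). Its partner Tap2, the tapasin gene Tapbp, its relative Tapbpl and the trimming enzyme gene Erap1 also increased on all 3 days. The general chaperone gene Canx had Log2FC values of 0.20, 0.01 and 0.19 and was not called. At 8 d the count of 5 became 2 without surrogate variables, and was 5 without mice D720 and D844. The median Log2FC of this list was 2.11, 1.68 and 1.59 at 5, 8 and 28 d (2.44, 2.24 and 2.20 without both mice), and that over all genes was -0.01, -0.03 and 0.01.

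All 5 genes of the immunoproteasome list increased at 5, 8 and 28 d, and 4 did at 8 d without surrogate variables. Psmb9, an interferon-induced catalytic subunit, had Log2FC values of 3.703, 2.64 and 3.39 (FDR 2.446e-05, 0.00119 and 0.000198), and Psmb8 values of 3.56, 2.50 and 3.07. Of the 3 constitutive counterparts that these subunits replace, none was called in either direction. Psmb6, the counterpart of Psmb9, had Log2FC values of 0.00, -0.06 and 0.15. Of 12 interferon and NF-κB input genes tested of 13 listed, 7, 9 and 9 increased at 5, 8 and 28 d and none decreased. At 8 d the 9 became 6 without surrogate variables and 10 without D720 and D844. Irf1 had Log2FC values of 3.59, 2.72 and 2.16. Among 8 partners of Nlrc5 at class I promoters, which belong to the RFX, NF-Y and CREB families, none was called at 5 d, Nfya and Atf1 increased at 8 d and Nfya at 28 d. Without surrogate variables 2 of the 8 increased on each of these days, and likewise without D720 and D844. Their median Log2FC was 0.17, 0.17 and 0.10.

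Of 8 further class I and class I-like genes tested of 30 listed, 5 increased at 5 d, 5 at 8 d and 6 at 28 d. Without surrogate variables 3 did at 8 d, and without D720 and D844 5 did. H2-Q6, a near neighbour of H2-Q7, had Log2FC values of 4.71, 2.77 and 3.87 (FDR 0.000113, 0.0114 and 0.000833). It shares sequence with H2-Q4, and the part of shared reads in these values was not tested. Cd1d1, which presents lipids to NKT cells, had values of 2.93, 2.75 and 1.65, and Ulbp1, a ligand of the NKG2D receptor, 3.15, 3.66 and 3.64. Mr1, which presents vitamin B metabolites, was called at 28 d only, with values of 0.13, 0.25 and 0.80. Its response at 28 d differed from that at 5 d by 0.67 (SE 0.30, FDR 0.158), which did not pass the test. Fcgrt was also called at 28 d only. It was the 1 gene of these 8 whose response passed as larger at 28 d than at 5 d. The other 22 listed genes were not found by symbol among the genes analysed here.

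The 5 class II genes increased on the same 3 days, with a median Log2FC of 5.04, 3.33 and 5.08 at 5, 8 and 28 d. Without surrogate variables 1 of them was called at 8 d, and without D720 and D844 all 5 were, with medians of 5.78, 5.43 and 6.71 on the 3 days. Class II molecules present peptides to CD4+ T cells and are made mainly by macrophages, microglia, dendritic cells and B cells. Ciita, their transactivator and a relative of Nlrc5, had Log2FC values of 5.37, 4.12 and 4.49 (FDR 1.510e-05, 0.000412 and 0.000311). The summed class II level was 2591 to 3195 CPM in rAAV-OVA and 12.2 to 95.2 CPM in control mice at 5 d, 1781 CPM in D720 and 350 CPM in D844.

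T cell and monocyte markers, and some microglia markers, moved with class I, and their part in the class I values was not tested. Of 10 T cell markers 2 were found by symbol, Cd8a and the receptor gene Trbc2, and both increased at 5, 8 and 28 d. The listed marker Trac, held under its gene ID alone, increased as well. Its Log2FC values were 2.96, 2.95 and 4.24 (FDR 0.00182, 0.00519 and 0.000253). The summed level of Cd8a and Trbc2, without Trac, was 97.9 to 153 CPM in rAAV-OVA mice at 5 d, 158 to 523 CPM at 8 d and 31.9 to 652 CPM at 28 d. It was 0.78 to 3.33 CPM in control mice at 5 and 28 d. Whether class I and T cell markers rose in proportion was not tested. From 5 to 8 d the mean of Cd8a in rAAV-OVA mice went from 40.9 ± 6.18 to 107 ± 51.0 CPM (SD, n = 4), while that of the summed heavy chains went from 2729 ± 332 to 2611 ± 928 CPM. Control mouse D720, with 2001 CPM of heavy chains, had 33.3 CPM of Cd8a and Trbc2 together. In rAAV-OVA mouse D844, with 427 CPM of heavy chains, their sum was 31.9 CPM.

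Of 8 monocyte markers 6, 6 and 5 increased at 5, 8 and 28 d (5 at 8 d without surrogate variables), and their summed level was 400 to 569 CPM in rAAV-OVA against 68.6 to 96.2 CPM in control mice at 5 d. In D720 it was 168 CPM, the highest of the 3 controls of its day, of which the lowest had 80.4 CPM. Of 9 microglia markers tested of 10, 4 increased and 1 decreased at 5 d, 2 increased at 8 d and 6 at 28 d. The 2 at 8 d became 0 without surrogate variables and 7 without D720 and D844. The homeostatic microglia genes Gpr34 and P2ry12 went the other way at 5 d, with Log2FC values of -1.24 (FDR 0.00073) and -0.65 (FDR 0.0131), the latter within the Log2FC limit. The summed level of the 9 markers was 1150 to 1170 CPM in rAAV-OVA and 524 to 823 CPM in control mice at 5 d, and 1295 CPM in D720. Of all genes 4.67% decreased at 5 d, 0.588% at 8 d and 4.86% at 28 d. Of 10 neuronal markers none was called at 5 and 8 d and 5 decreased at 28 d, and of 5 astrocyte markers Gfap increased at 28 d (3 markers without surrogate variables and 3 without D720 and D844). Of 5 oligodendrocyte markers 4 decreased at 5 d, and of 5 endothelial markers 3 increased at 28 d. All 5 choroid plexus markers decreased at 5 d, with 40.2 to 3773 CPM in control and 42.1 to 130 CPM in rAAV-OVA mice. Without surrogate variables 0 choroid plexus and 2 oligodendrocyte markers decreased at 5 d. Of the neutrophil markers 2 of 5 were tested and Csf3r increased at 8 and 28 d. Eomes, the only listed NK cell marker tested of 4, was not called on any day. It had 0.50 to 5.86 CPM in control mice at 28 d, and NK cells cannot be judged from this gene alone. No B cell marker of 3 was found by symbol among the genes analysed.

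Genes whose level followed the summed heavy chains most closely within groups were found by correlating log2 CPM, centred on each of the 8 group means, over 31 mice. These values describe the same libraries that hold the outlying mice D720 and D844, so they are given with both and then over the 29 others. The closest genes outside the members were H2-Q6 (r = 0.979 and 0.957), Mpeg1 (0.968 and 0.915), Lgals3bp (0.965 and 0.895), C4b (0.963 and 0.919) and H2-Eb1 (0.962 and 0.885). Irf9 (0.960 and 0.911), Ctss (0.958 and 0.864), Trav14d-1 (0.956 and 0.858), H2-Aa (0.951 and 0.854) and Trac (0.947 and 0.830) followed. H2-Q6 holds 17.1% of the 31-base stretches of the member H2-Q4, and the part of shared reads in its r was not tested. Mpeg1 encodes a pore-forming protein of macrophages, C4b a complement component, Ctss a lysosomal protease, and Trac and Trav14d-1 parts of the T cell receptor α chain. Among the members B2m had r = 0.992 and 0.980, and Nlrc5 0.875 and 0.746.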

How the data were processed

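The deposited values are estimated counts per gene, which the authors made by fastp trimming, quantification against GENCODE M29 in Salmon 1.8.0 with GC correction and summing to genes, and left as whole numbers without normalization. The table is limited to the 15648 genes that reach 15 counts in 15 of the 31 mice. The 2 deposited tables hold the same counts, and 0 cells differ. CPM were computed with TMM factors. Differential expression was tested with edgeR 4.0.16 (quasi-likelihood, R 4.3.3) over 8 groups and 2 surrogate variables from sva 3.50.0, with an FDR of at most 0.05 and a Log2FC limit of 0.66. The steps were tested on simulated data. The alternatives used DESeq2 1.42.0, ashr 2.2.63, limma 3.58.1, other covariates, filters, batches and samples. The 9 members and all gene lists were chosen with earlier results of these data known. Listed genes were matched by symbol, so a gene held under its ID alone was not counted. The named genes are the members, the listed genes and the 10 genes closest to the summed heavy chains within groups. The counts use GRCm39, and promoters come from RefSeq on GRCm38.p6, so coordinates belong to the latter only. The p-values measure the spread between mice, which carries counting error as well. No columns of values were left unused (0).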

Additional observations from a re-analysis of the deposited data

Results flagged for a closer look

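A few values lay far from the other mice of their group, by the gap to the nearest mouse as a share of the group's range in groups of 4. Chance alone flags about 1 in 20 groups, and 3 of 70 sets of values were flagged. Groups of 3, such as the control mice at 8 d that include D720, were not tested. Nlrc5 of rAAV-OVA mouse BEC-B542 at 2 d was 35.5 CPM, with 4.19 to 9.21 CPM in the other 3 mice, and the gap was 0.840 of the range. H2-K1 of rAAV-OVA mouse D684 at 2 d was 77.5 CPM, the lowest of its group, with a gap of 0.922. H2-T23 of control mouse D843 at 28 d was 21.7 CPM, the highest of its group, with a gap of 0.878. No cause of these values was tested.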

How the results depend on the processing

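No paired analysis was possible because the groups share no replicate names. At 5 d all members tested were called under every alternative tried, with 7 of 7 left by the filter of 15 counts in every mouse, which removes H2-Q7 and Nlrc5. At 28 d the same held except for 0 of 9 in batch 2 alone. At 8 d the count of 9 became 2 without surrogate variables, 2 with the batch label as covariate, 0 with the mice of the day alone and 4 in batch 1 alone, and 1 to 9 when single mice were left out. The cause was not tested. Fits without surrogate variables and without D720 or D844 were chosen after seeing the data and called 9 of 9 at 8 and 28 d. Leaving out single mice gave 0 to 1 members changed in control mice between 2 and 28 d, and 0 in every test between days. The summed heavy chains differed at 2 d by -0.35 to -0.10, at 5 d by 3.83 to 4.21, at 8 d by 1.69 to 3.85 and at 28 d by 3.41 to 4.46 on the log2 scale without single mice. In batch 1 alone the 28 d value was 4.86 and in batch 2 alone 2.71. At 2 d, where no member was called, signs turned for H2-Q4 to 0.085 and for H2-M3 to 0.0084 with the stricter filter, for H2-T22 to -0.035 in batch 1 alone, for H2-Q4 to 0.31 and H2-M3 to 0.039 in batch 2 alone, and for H2-Q4 to 0.038 without D720 and D844. Leaving out single mice moved the 2 d Log2FC of H2-Q4 from -0.25 to 0.14, of H2-M3 from -0.38 to 0.026, of H2-T22 from -0.12 to 0.19, of B2m from -0.39 to 0.0041 and of Nlrc5 from -0.086 to 0.85.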
